A study of Mus musculus with 9 samples.

Results

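The 5′ leader of Ddx17, 1 of 69 transcripts in this experiment, is described here by its pattern of reaction with dimethyl sulfate (DMS) in living cells and in refolded RNA. The members are all readings that the deposited table lists for the Ddx17 transcript: 985 of 32967 nucleotide readings, from 5 overlapping amplicons of 161. They cover 746 positions of 27682, running without a gap from position 209 to position 954 as the table numbers the transcript. Ddx17 was selected on the spread of its measured signal, which was more uneven in cells than after refolding, so every value that sets refolded RNA against cells is a description. Counts of readings called in that contrast stand beside the share over the table, with no p-value for Ddx17, and nothing is read from them. The contrast of ATP-depleted with untreated cells was not the one that chose Ddx17, and it was tested. It does share the untreated samples with the contrast that did.

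Multiplexed amplicon sequencing was used to profile highly conserved 5′ untranslated regions in mouse E14 embryonic stem cells of the genotype E14TG2a. The experiment has 9 samples in 3 groups of 3, described in the labels as independent samples. One group of cells was depleted of ATP for 10 min with 10 mM 2-deoxyglucose and 10 mM sodium azide, which block energy production, and these agents stayed in the media up to the DMS step. The second group was left untreated, and in both in-cell groups DMS was applied at 1.6% in 250 mM bicine, for 6 min at 37 °C. In the third group the RNA was refolded in vitro, with DMS conditions not given in the sources used here. RNA never exposed to DMS was not analysed here, and values therefore include whatever background a nucleotide has.

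Ddx17 encodes a DEAD-box RNA helicase, also known as p72, which takes part in splicing, microRNA processing and transcription. Dimethyl sulfate methylates the pairing face of A and C where they are not base-paired or covered, and reverse transcription then leaves a mutation in the cDNA at the marked base. A low value at an A or C can therefore mark a base pair, a bound protein or a base that reacts poorly, which this assay alone does not separate. At raised pH the reagent can also mark T (U in the RNA) and G.

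The stretch holds 175 A and 140 C, so 315 positions carry the main measurement. Its GC content was 43.2%, the 3rd lowest of the 69 transcripts, whose median was 58.9%. Each Ddx17 library, that is 1 amplicon in 1 sample, held between 24049 and 335136 counts, against a median of 40815 over all libraries. Values are counts per 1000000 within an amplicon and sample (CPM), so they show how the signal is spread along an amplicon and not whether the whole RNA reacted more or less. In untreated cells the median was 8877 ± 756 CPM for A, 5652 ± 262 CPM for C, 4959 ± 674 CPM for T and 916 ± 53.1 CPM for G (mean ± SD of 3 sample medians). At 239 positions, 93 of them A or C, the stretch was read in 2 amplicons, and these readings were averaged.

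The sequences that the results turn on are the arms of 3 long-range helices, all of them predicted from the sequence alone. Capitals mark the bases of the named helix in the minimum free energy structure, and lower case marks flanking bases. Flanking bases can be paired too: a 6-pair helix between 583 to 588 and 849 to 854 takes in some of those beside the outer helix. The letters are those of the deposited table, 5′ to 3′, with T for U.
Outer helix, 5′ arm, positions 590 to 606: ttcTCCCAACAGAGTAAAAGtga
Outer helix, 3′ arm, positions 831 to 847: cctCTTTTACTCTGTTGGGAtga
Middle helix, 5′ arm, positions 613 to 621: tttGGCCCTGCActt
Middle helix, 3′ arm, positions 794 to 802: agaTGCAGGGCCtgc
Inner helix, 5′ arm, positions 630 to 638: atgGTGGTTACTaag
Inner helix, 3′ arm, positions 776 to 784: tagGGTAATCACaaa

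The arms of the outer helix are perfect Watson-Crick complements over 17 bases, separated by 224 nucleotides. No other transcript in the table held a pair of complementary arms that long. The longest pair per transcript ranged from 6 to 17 bases with a median of 8. The middle helix has 9 Watson-Crick pairs and the inner helix has 9 pairs including G-U wobbles. The 3 helices lie one inside the other, and no amplicon contains both arms of the outer helix. They are the helices of at least 9 pairs that lie within positions 590 to 847 and whose outermost pair spans over 150 nucleotides. This rule was set after the values had been seen and leaves out another 9-pair helix outside the 17-base arms, between 509 to 517 and 885 to 893, so the 3 are described and not tested.

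Inside the 3 helices the A and C signal was low in every in-cell sample and several times higher after refolding. The 33 A and C positions of the arms had median signals of 452, 529 and 556 CPM in the ATP-depleted samples, of 968, 683 and 906 CPM in the untreated samples, and of 4343, 4635 and 4449 CPM in the refolded samples. The 3 refolded medians lay far above all 6 in-cell medians, and the ATP-depleted medians all lay below the untreated ones, a difference that was not tested. At 30 of the 33 positions every refolded sample exceeded every in-cell sample. The exceptions were C596, C617 and C620, and none of the 33 lay below all in-cell samples. Over the whole table, refolded samples exceeded all in-cell samples at 13.9% of A and C positions, and over the Ddx17 stretch at 29.2%. Because this contrast chose Ddx17, nothing is read from that difference. Per position the refolded mean was 2.11 to 17 times the in-cell mean, with a median of 4.86 times.

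The positions just outside the paired arms looked different. The 23 A and C between the arms of neighbouring helices had median signals of 10563 ± 705 CPM in depleted cells, 10812 ± 402 CPM in untreated cells and 9059 ± 380 CPM after refolding (mean ± SD of sample medians, n = 3). At 6 of these 23 positions all refolded samples were above all in-cell samples, and at 9 they were below. The remaining 259 A and C of the stretch had medians of 7629 ± 406, 7980 ± 557 and 6852 ± 250 CPM in the same order. The linkers thus carried more signal than the rest of the stretch in every group when medians are compared, although single linker positions such as C821 were low in cells. Linkers are set by position alone and include bases predicted to pair, such as C821 with position 810.

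**Figure D1:**
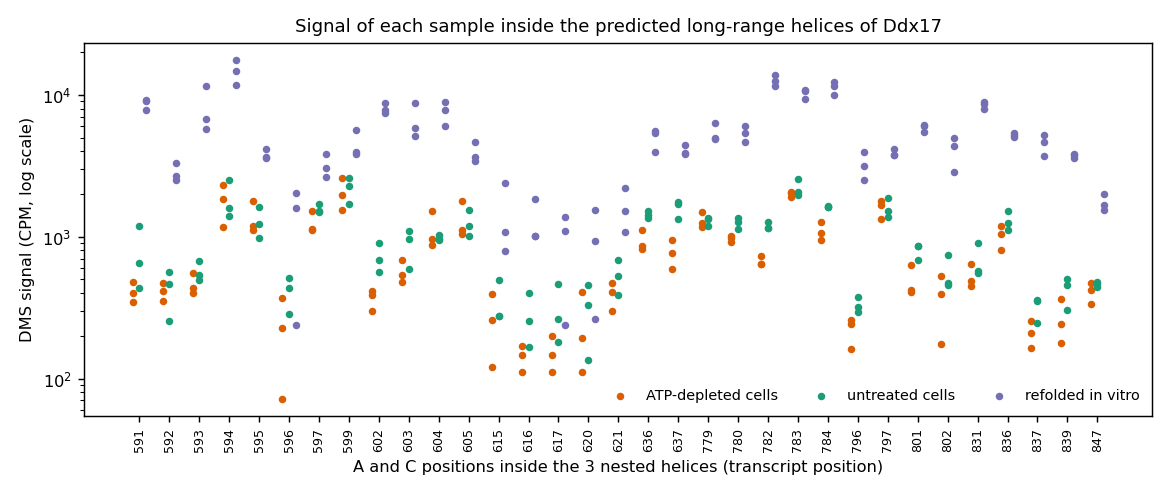
DMS signal in CPM (log axis) of each sample at the 33 A and C positions inside the 3 predicted long-range helices, ordered by transcript position; each point is 1 sample and colours give the group. The refolded samples lie above all 6 in-cell samples at 30 of the 33 positions, the exceptions being 596, 617 and 620.

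The outer helix contributed 17 of the 33 positions. Its 5′ arm was read in the amplicon from 503 to 753 and its 3′ arm in 2 other amplicons. The 5′ arm, with 12 A and C, had a median of 846 ± 183 CPM in depleted cells, 932 ± 146 CPM in untreated cells and 5636 ± 714 CPM after refolding. For the 5 A and C of the 3′ arm the medians were 408 ± 68.8, 476 ± 31.7 and 4460 ± 651 CPM. In both arms all refolded sample medians lay above all in-cell ones, while the in-cell groups overlapped. The arms were read in different amplicons, but of the same samples. All 5 positions of the 3′ arm and 11 of 12 in the 5′ arm were higher in every refolded sample.

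Single positions of the outer helix show the size of the difference. C591 gave 346, 483 and 401 CPM in the ATP-depleted samples, 1198, 434 and 655 CPM in the untreated samples, and 7879, 9184 and 9075 CPM in the refolded samples. A594, the strongest of its arm after refolding, gave 1174, 1829 and 2317 CPM, then 1590, 2498 and 1399 CPM, then 17708, 14646 and 11650 CPM. C831, at the start of the 3′ arm, gave 452, 486 and 637 CPM, then 909, 570 and 551 CPM, then 8864, 8551 and 7941 CPM. The in-cell groups overlapped at each of these positions, and the refolded samples stood apart. Refolded over in-cell means were 14.9 times at C591, 8.14 times at A594 and 14.1 times at C831.

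The middle helix, which is rich in G and C, had the weakest signal of the 3. Its 9 A and C had medians of 276 CPM in depleted cells, 419 CPM in untreated cells and 1911 CPM after refolding, and 7 of the 9 were above all in-cell samples. The inner helix had 7 A and C with medians of 989, 1369 and 5923 CPM, and all 7 were above. C782 in its 3′ arm had the largest refolded minus in-cell difference of the stretch, 1.94 on the log2(CPM + 3197) scale, with 638, 645 and 725 CPM in depleted cells, 1156, 1144 and 1270 CPM in untreated cells and 12567, 13763 and 11484 CPM after refolding. Its neighbour C784 gave 1267, 945 and 1062 CPM, then 1625, 1621 and 1644 CPM, then 11493, 9909 and 12304 CPM. At both positions the ATP-depleted samples lay below the untreated ones without overlap, and limma gave an adjusted p of 1.00 for each.

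T positions of the same arms behaved like the A and C. The 18 T had medians of 291 ± 37.4 CPM in depleted cells, 414 ± 114 CPM in untreated cells and 3412 ± 512 CPM after refolding, and 17 of them were above all in-cell samples. Over the table that was the case for 6.80% of T positions, and over the Ddx17 stretch outside the arms and linkers for 15.0%. The 19 G of the arms stayed low in all groups, at 313 ± 34.4, 309 ± 79.6 and 467 ± 45.9 CPM, although every refolded median lay above all in-cell medians. At 6 of the 19 G all refolded samples were above all in-cell samples, and at 1 they were below. Outside the arms and linkers 15.8% of G were above.

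The other predicted helices differed among themselves. The fold of the stretch contained 13 helices of at least 6 stacked pairs, with a minimum free energy of -227.8 kcal/mol at 37 °C. A 7-pair helix that encloses the outer one, between 536 to 542 and 876 to 882, had medians of 2057, 2577 and 7960 CPM, and all 6 of its A and C were higher in every refolded sample. The outermost, between 509 to 517 and 885 to 893, also has perfectly complementary arms of 9 bases, yet its medians were 8741, 8722 and 7760 CPM, with 4 positions higher and 4 lower after refolding. A 12-pair hairpin stem enclosed by the inner helix, between 688 to 699 and 744 to 755, had medians of 7052, 7181 and 6481 CPM and no position that stood apart. In a local helix between 372 to 381 and 460 to 469 the order was opposite, with 5874, 7003 and 3343 CPM and 5 of 8 positions lower after refolding.

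**Figure D2:**
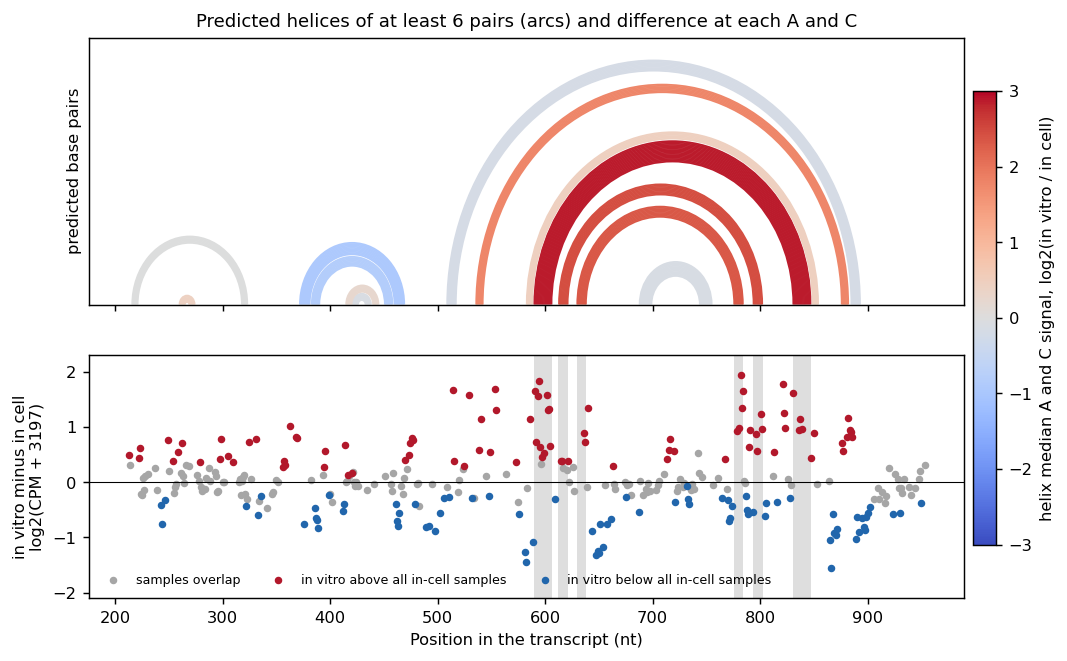
Upper panel: predicted helices of at least 6 pairs drawn as arcs over transcript position, coloured by the log2 ratio of the helix's median A and C signal, refolded over in-cell. Lower panel: refolded minus in-cell difference of each A and C on the log2(CPM + 3197) scale, with red and blue points where the refolded samples lie above or below all in-cell samples and grey bands over the arms of the 3 nested helices. Arcs join bases that are predicted to pair.

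How well a predicted fold ranked the signal differed between folding the whole stretch and folding it locally. With the whole stretch folded, 111 A and C were predicted unpaired (probability at or above 0.5) and 204 paired. The area under the curve, which is 0.5 where signal does not rank unpaired above paired positions and 1 where it always does, was 0.709 ± 0.00667 in depleted cells, 0.697 ± 0.00543 in untreated cells and 0.693 ± 0.0158 after refolding (SD, n = 3). With local folding, averaged over windows of 200 nucleotides and with pairs limited to a span of 150, it was 0.543 ± 0.00624, 0.524 ± 0.0114 and 0.631 ± 0.0151. With the whole-stretch fold the refolded samples overlapped both in-cell groups, and with local folding the refolded samples all lay above the in-cell samples. Window and span were changed together, so their parts were not separated. Positions of 1 RNA share libraries and are not independent, so these areas are descriptions.

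Weak positions were more frequent in cells than after refolding. The 10th percentile of A and C values was 843, 875 and 1004 CPM in the ATP-depleted samples, 1148, 1034 and 1190 CPM in the untreated samples and 2015, 2143 and 2437 CPM in the refolded samples. The groups did not overlap, and the medians of all A and C, 7059 ± 545, 7389 ± 515 and 6752 ± 132 CPM, were close together. Below 1598 CPM, a limit of 0.25 times the median over the table's A and C, lay 40 A and C in all 6 in-cell samples. Of these, 24 were in the 3 helices, 30 were above all in-cell samples after refolding, and 9 were also below that limit in every refolded sample. The 40 were picked for low in-cell values, which by itself favours higher refolded values, and this contrast chose Ddx17. Refolded samples exceeded all in-cell samples at 13.9% of A and C positions over the whole table, weak or not. No share is given for equally weak positions of other transcripts, so nothing is read from the 30. By predicted partner, 24 of the 40 were among the 92 A and C paired over more than 150 nucleotides, 14 were among the 114 paired more locally and 2 were among the 109 unpaired. The 17-base arms alone held 12 of the 40. Without these arms, the other 75 A and C paired over more than 150 nucleotides were not weak in cells. Their medians were 7133 ± 756 CPM in depleted and 6855 ± 347 CPM in untreated cells, against 6401 ± 550 and 6787 ± 383 CPM for those paired more locally.

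**Figure D3:**
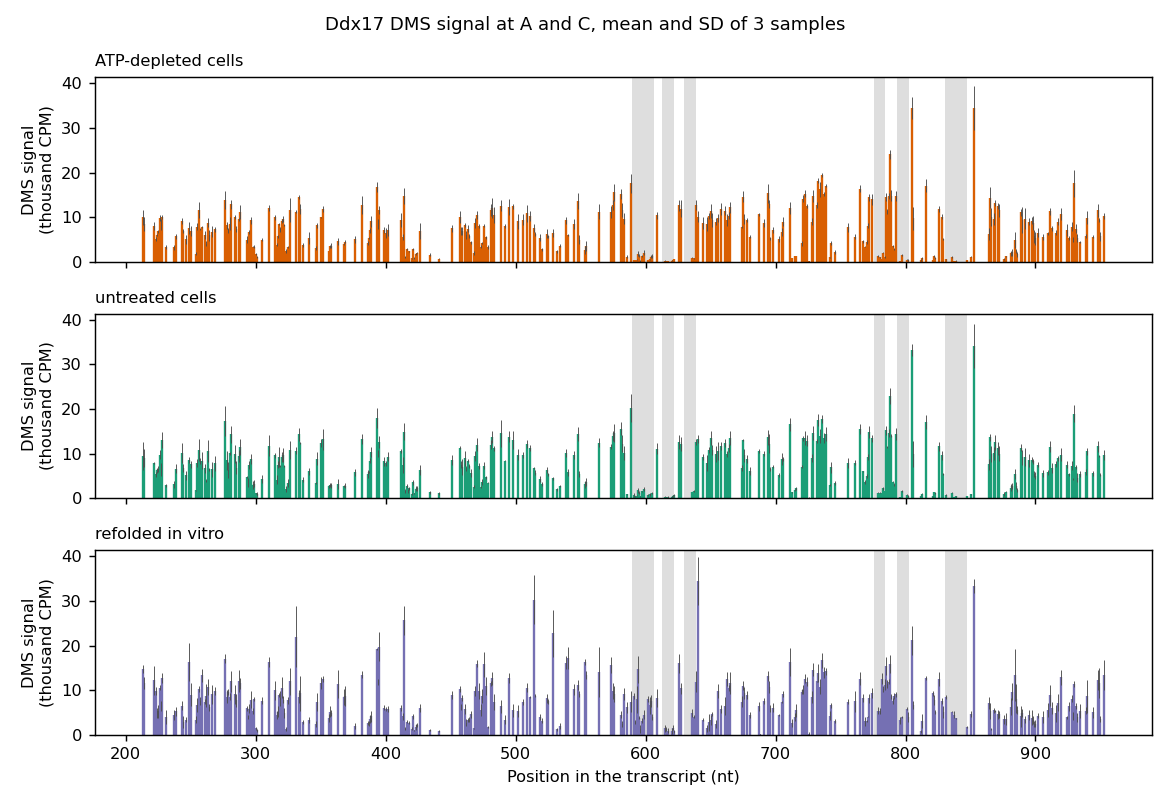
DMS signal in units of 1000 CPM at each A and C of the Ddx17 stretch by transcript position, as the mean of 3 samples (coloured bars) with its SD (thin lines), for ATP-depleted cells, untreated cells and refolded RNA. Grey bands mark the arms of the 3 nested helices, where the in-cell panels are nearly empty and the refolded panel holds signal.

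The Gini coefficient, which is 0 when all A and C react equally and rises as signal concentrates on fewer of them, was higher in cells without overlap in the 2 amplicons nearest the 3′ end. The amplicon from 639 to 889 gave 0.496, 0.50 and 0.498 in depleted cells, 0.466, 0.469 and 0.470 in untreated cells and 0.324, 0.333 and 0.338 after refolding. The amplicon from 731 to 981 gave 0.447, 0.467 and 0.455, then 0.427, 0.452 and 0.437, then 0.323, 0.358 and 0.313. In both, the refolded samples lay below all in-cell samples. They were the amplicons with the lowest and 2nd lowest refolded minus untreated difference of the 161. Of the 161, 1.86% were called lower and 80.1% higher after refolding than in untreated cells.

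The 5′ amplicons ran the other way, so the description of the leader as more uneven in cells does not hold along its whole length. From 333 to 583 the coefficient was 0.312 ± 0.00850 in depleted cells, 0.333 ± 0.00763 in untreated cells and 0.402 ± 0.0360 after refolding. From 172 to 422 it was 0.265 ± 0.00521, 0.288 ± 0.0116 and 0.311 ± 0.0109, and the refolded excess over untreated cells vanished, at -0.000628, when 25 nucleotides at each amplicon end were left out. The middle amplicon, 503 to 753, gave 0.420 ± 0.00562, 0.412 ± 0.00702 and 0.384 ± 0.0350, with overlapping samples. Merged over the stretch, the coefficient was 0.385 ± 0.00465, 0.377 ± 0.00447 and 0.353 ± 0.0208, where refolded sample 3 at 0.329 lay well below the other refolded samples at 0.366 and 0.365. The lower value after refolding also rested on the weak nucleotides: among A and C at or above the table's median mean, the refolded minus untreated difference was 0.0132 for 639 to 889 and 0.0925 for 731 to 981, in place of -0.137 and -0.107.

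**Figure D4:**
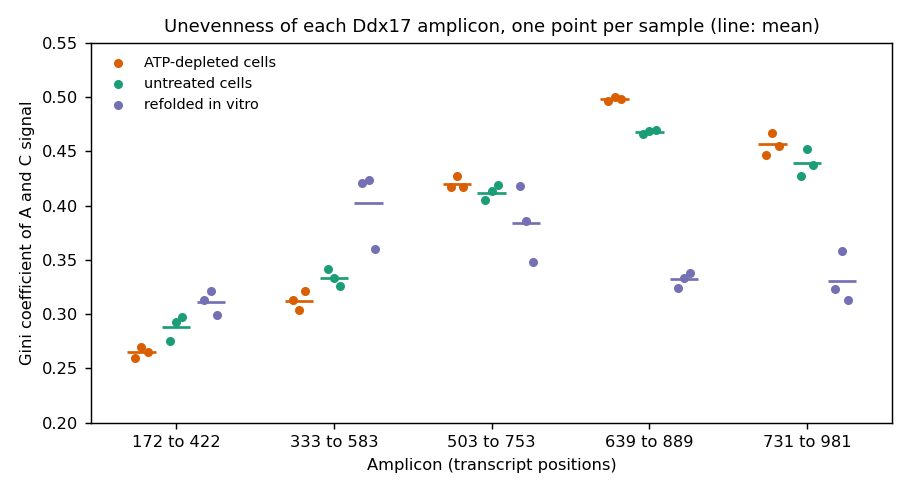
Gini coefficient of A and C signal in each of the 5 Ddx17 amplicons, labelled by transcript positions; points are samples, lines are group means, and the axis starts at 0.2. Refolded samples lie above the untreated ones in the 2 amplicons at the left and below all in-cell samples in the 2 at the right.

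Over the stretch as a whole, positions differed between refolded RNA and cells in both directions. Of the 408 A and C readings, 166 were called different from untreated cells by limma (40.7%, with 16.3% over all readings), 100 higher and 66 lower (8.08% and 8.18% over all readings), and 170 differed from ATP-depleted cells (41.7%, with 14.9% over all readings). That last count was 109 without ATP-depleted sample 2. Merged positions at which the refolded samples lay below all in-cell samples numbered 77 of 315 (24.4%, with 12.1% over the table). These counts come from the contrast that chose Ddx17, and nothing is read from them. Profile correlations describe the same contrast: over the 315 merged positions, which share libraries and base composition, the mean r was 0.982 between ATP-depleted samples, 0.977 between untreated samples, 0.922 between refolded samples, 0.973 between the in-cell groups and 0.582 between refolded and untreated samples. From the lowest of 69 transcripts, the r between refolded and untreated samples ranked 15th, and the r of 0.586 between refolded and ATP-depleted samples ranked 12th. The r between untreated replicates ranked 67th and that between ATP-depleted replicates 68th. The shortfall of the refolded to untreated r against the mean r of the refolded and the untreated replicates was 0.368, the largest of the 69, whose median was 0.0687.

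Several of the positions lower after refolding lay in short runs. These windows show the 3 with the largest difference, with the position in capitals:
C866, lower after refolding: ttttttgtacCtactcagggc
C582, lower after refolding: tagactgtgcCaggcttctcc
C647, lower after refolding: ctaagttcttCtacattctag
C866 gave 7858, 11967 and 10140 CPM in depleted cells, 7910, 11461 and 10328 CPM in untreated cells and 983, 1443 and 1349 CPM after refolding. C582 gave 10568, 13494 and 10965 CPM, then 10074, 13864 and 12674 CPM, then 1813, 3198 and 2096 CPM. C647 gave 6809, 8797 and 9823 CPM, then 5892, 8839 and 9095 CPM, then 1220, 671 and 2359 CPM. At these 3 positions the in-cell groups overlapped and the refolded samples lay far below. C581 and C589 beside C582, and A649, C650 and C654 beside C647, complete the 8 positions with the largest negative difference, from -1.07 to -1.55 on the log2(CPM + 3197) scale. C589 directly precedes the 5′ arm of the outer helix, and it was among the most reactive positions in untreated cells at 20260 ± 3066 CPM, against 7423 ± 2308 CPM after refolding.

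Some positions outside the 3 nested helices were also higher after refolding. A514, in the outermost predicted helix, gave 7149, 7096 and 8702 CPM in depleted cells, 6596, 6940 and 6720 CPM in untreated cells and 33665, 33145 and 24032 CPM after refolding. C821, in the linker before the 3′ arm of the outer helix and predicted to pair with position 810, gave 486, 388 and 389 CPM, then 604, 424 and 359 CPM, then 8968, 10012 and 9012 CPM. A553 gave means of 2638 ± 833, 3132 ± 731 and 16312 ± 755 CPM. A640, 2 positions after the 5′ arm of the inner helix, was the most reactive A or C after refolding, at 34457 ± 5361 CPM against 10072 ± 1211 CPM and 13229 ± 862 CPM in cells. In each case the 3 refolded samples lay above all in-cell samples.

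Of 19 A and C above 12787 CPM in all 6 in-cell samples, 7 were also above that level in every refolded sample. C853, 6 positions past the outer helix and predicted to pair with position 584, gave 34440 ± 4975 CPM in depleted cells, 34149 ± 4971 CPM in untreated cells and 33325 ± 1542 CPM after refolding, with overlapping samples. C805, which is 3 positions past the middle helix's 3′ arm, gave in-cell means of 34525 ± 2483 and 33172 ± 1345 CPM and a refolded mean of 21216 ± 3243 CPM. C788, between the inner and middle helices, gave 24073 ± 1028, 22968 ± 1762 and 15832 ± 2089 CPM. C805 and C788 were predicted unpaired, and both lie within a few nucleotides of the weak arm positions. A736 and C733, between the arms of the hairpin stem, gave 17770 ± 880 and 17502 ± 1369 CPM in untreated cells and 16747 ± 1675 and 13900 ± 2036 CPM after refolding. The minimum free energy structure pairs C733 with position 709, although its unpaired probability was 0.81. A930 near the 3′ end gave 18922 ± 1921 CPM in untreated cells and 11335 ± 669 CPM after refolding, while A414 gave 14956 ± 1880 and 25616 ± 3202 CPM.

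By 50-nucleotide segment, the share of A and C signal between 509 and 558 was 5.08% ± 0.244 in depleted cells, 4.94% ± 0.144 in untreated cells and 8.25% ± 0.432 after refolding. Between 859 and 908 the order was opposite, with 7.55% ± 0.787, 7.25% ± 0.262 and 4.98% ± 0.531. The segment from 809 to 858, which holds the 3′ arm of the outer helix, had 3.78% ± 0.210 and 3.67% ± 0.122 in the in-cell groups and 5.17% ± 0.104 after refolding. In these 3 segments the refolded samples did not overlap the in-cell samples.

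No single position of Ddx17 could be called between ATP-depleted and untreated cells. None of the 408 A and C readings was called by limma after Benjamini-Hochberg adjustment over the 16178 readings of the table, in which 0 (0.0%) were called, and 19 readings had an unadjusted p under 0.05 (4.66%, with 3.93% over the table). Merged positions without overlap between the groups numbered 17 higher after depletion (5.40%, with 4.51% over the table) and 36 lower (11.4%, with 8.30%). These shares stand beside those of the table, and no result about Ddx17 is drawn from them. The median standard error of a reading's difference was 0.10 to 0.14 log2 units by amplicon, so a missing call does not show that a position was equal.

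The largest differences toward lower signal lay close together, between the arms of the hairpin stem from 688 to 755. Their windows are shown with the position in capitals:
C742, lower after ATP depletion: acagaagaggCaggagtttgg
C720, lower after ATP depletion: tagctcctgtCagcatatcat
A369, higher after ATP depletion: ttttagtgtaAtgtgttcttg
C742 gave 939, 1166 and 1002 CPM after ATP depletion and 2865, 2933 and 3297 CPM in untreated cells, a difference of -0.56 (SE 0.12) on the log2(CPM + 3197) scale with a limma unadjusted p of 0.00128 and an adjusted p of 1.00. C720, read in 2 amplicons, gave 3633, 4218 and 4709 CPM against 6961, 7456 and 6760 CPM, with differences of -0.48 and -0.47 (SE 0.10 in both), limma unadjusted p of 0.00128 and 0.00164, and an adjusted p of 1.00. A743 gave 4376, 3772 and 4609 CPM against 6520, 6070 and 8355 CPM, and A711 gave 12236, 10769 and 13447 CPM against 16276, 15340 and 18229 CPM. At these 4 positions the groups did not overlap, and none passed the test. In the predicted fold C742 pairs with position 701 and A711 with position 731, while C720 and A743 have no partner. The refolded samples at C742, with 5011, 3094 and 4672 CPM, lay above the ATP-depleted ones.

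Higher values after ATP depletion were smaller in size. A369 gave 4709, 4069 and 4727 CPM against 2455, 2551 and 3405 CPM, a merged difference of 0.36, and its neighbour A368 gave 4282, 3999 and 3790 CPM against 3016, 2491 and 2729 CPM. C529 gave 6279, 5775 and 7332 CPM against 4083, 4861 and 4424 CPM, and C473 gave 3627, 3048 and 3517 CPM against 2291, 2772 and 2355 CPM. The groups did not overlap at these 4 positions, and limma's adjusted p was 1.00 at each. After refolding all 4 were higher still, with means of 8770, 8494, 22734 and 5533 CPM.

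**Figure D5:**
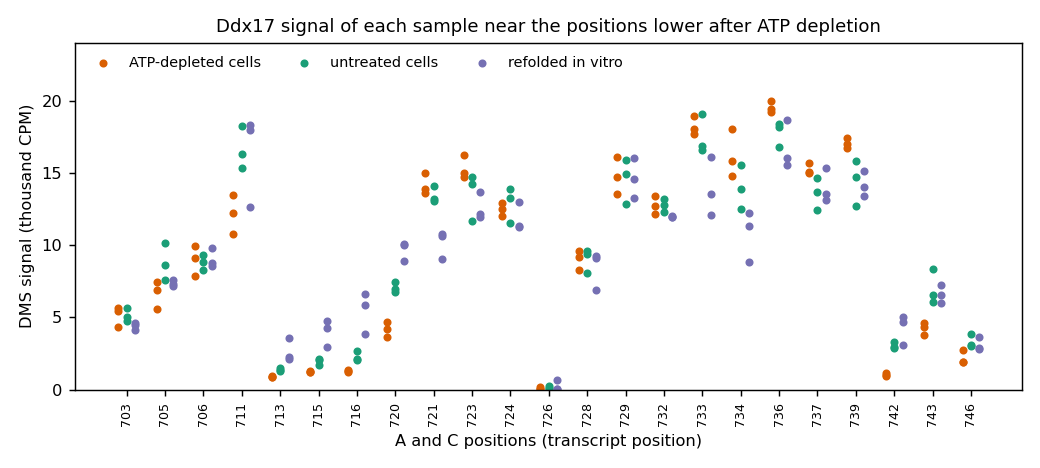
DMS signal in units of 1000 CPM of each sample at the A and C positions from 703 to 746, with 1 point per sample and colours for the group. At 711, 720, 742 and 743 the ATP-depleted points lie below the untreated points without overlap.

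For the Gini coefficient, the amplicon from 639 to 889 was higher after ATP depletion by 0.0296 (SE 0.00735, limma unadjusted p of 0.00399), and its adjusted p over 161 amplicons was 0.160. The amplicon from 172 to 422 was lower by 0.0233 (limma unadjusted p of 0.0422, adjusted p of 0.570). The 3 other amplicons had adjusted p of 0.984, and no amplicon of the table was called, while 8.07% had an unadjusted p under 0.05. For the merged profile an exact two-sided permutation test gave p = 0.10 for 0.385 against 0.377, which is the smallest p that 3 samples against 3 allow.

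Positions read in 2 amplicons allow the differences to be compared between libraries made with different primers. Over the 93 A and C read in 2 amplicons, refolded minus in-cell differences had an r of 0.95 between the readings, and 76 had the same sign. In the overlap from 674 to 729 14 of 26 had the same sign. For ATP-depleted minus untreated differences r was 0.78 over the 93 and 0.58 over the 44 from 756 to 853. Levels could still differ: C720 gave 9733 CPM in untreated cells in the amplicon from 503 to 753 and 4385 CPM in that from 639 to 889. Comparisons between groups at a position are therefore made within an amplicon or on the mean of both.

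Sequence triplets were not used in the choice of Ddx17. Where the coding sequence begins was not analysed here, so the ATG triplets are counted without saying whether they precede it. The stretch holds 8 ATG triplets on the transcript strand, and 78.9% of the table's amplicons hold at least 1. The A of the ATG at 847 is the last base of the outer helix's 3′ arm. It gave 408 ± 68.8 CPM in depleted cells, 462 ± 20.2 CPM in untreated cells and 1741 ± 245 CPM after refolding. The A of the ATG at 498 had the opposite order, with 12434 ± 500, 13006 ± 2003 and 5470 ± 1437 CPM. The A of the ATG at 369 is the position with the largest difference toward higher signal after ATP depletion. The ATG at 511 opens the longest reading frame that closes within the stretch, 30 codons before a stop at 601. For the ATGs at 627 and 940 no in-frame stop was found within the stretch. Other triplets searched on that strand were CTG with 21 occurrences, AAA with 17, GGG with 13 and CCC with 7. These triplets were present in 100%, 82.0%, 93.8% and 94.4% of all amplicons, and a match is a description only.

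No other transcript followed the Ddx17 Gini coefficient over the 9 samples. Ddx17 was chosen for a coefficient higher in cells than after refolding, so low correlations follow from that choice and nothing is read from them. The Pearson correlation with its mean over amplicons was 0.09 for Tulp4, -0.33 for Chd2 and -0.36 for Pafah1b1, the 3 most alike in the table, and the median was -0.763. With Ddx17, Tulp4 was the only transcript whose mean was lower after refolding, at a difference of -0.00757, with -0.0372 for Ddx17. Of 69 listed genes for RNA-binding and RNA-processing proteins the table held 5, and all 5 had a higher mean after refolding. Among them the DEAD-box helicase gene Ddx6 gave 0.314 ± 0.00438 in depleted cells, 0.325 ± 0.00933 in untreated cells and 0.352 ± 0.00892 after refolding, and Dicer1, for the microRNA-processing nuclease, gave 0.439 ± 0.0238, 0.436 ± 0.0492 and 0.573 ± 0.0745.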

How the data were processed

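The authors deposited a log2 value per nucleotide, amplicon and sample. Per the submitters' processing notes bcl2fastq, Bowtie2 and limma were used; neither their roles nor the mutation counter and genome build are stated in the sources used here. From the values, the deposited log2 numbers are counts per 1000000 (CPM) within an amplicon and sample with a prior count of 0.5: whole counts were recovered in 1449 of 1449 libraries (tolerance 0.0001). The counts are taken to be mutations, and coverage, hence a mutation rate, is unknown. Counts come from amplified cDNA, so counting error is a lower limit. Totals ranged from 5743965 to 12616275 counts per sample.

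Groups came from the sample titles. Values were returned to CPM, and A and C were tested on log2(CPM + 3197), the pseudocount being 0.5 times the pooled median, which understates changes of weak positions. A limma model (version 3.58.1, R 4.3.3) took in all 9 samples and the 16178 A and C readings with counts (of 16187), two-sided, with Benjamini-Hochberg adjusted p and a limit of 0.05. Amplicon Gini coefficients were fitted likewise. Each limma p-value sets a group difference against the spread between these samples, moderated over all readings or amplicons. The fit was tested on simulated data. Folding used ViennaRNA 2.7.2 at 37 °C on the 746 positions. Same-numbered samples were not fitted as pairs, and over A and C their deviations from group means correlated at -0.02 to 0.10. Some summaries still followed the replicate number in cells. The Ddx17 ratio of A to T medians was 1.64, 1.29 and 2.24 in ATP-depleted samples and 1.75, 1.49 and 2.22 in untreated samples. Refolded samples gave 2.10, 2.13 and 2.08. The main fit and the permutation test do not model the replicate number, and whether same-numbered samples share an effect was not tested.

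Named positions are the 8 highest and 8 lowest differences of refolded against in-cell samples and the 4 highest and 4 lowest of ATP-depleted against untreated samples among positions without overlap, the 5 most reactive A or C of each group and the 3 most reactive T or G. Named transcripts are the 3 with the most similar Gini coefficient and those of a list of RNA-binding genes. The members and lists were chosen with earlier results of these data known; helices, start codons and neighbours of named positions were chosen after their values were seen. Genome coordinates were not used here.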

Additional observations from a re-analysis of the deposited data

Results flagged for a closer look

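Signal appeared at T and G, outside the A and C measurement, and these positions lie far above the median of their base. The strongest was G314 (gagttgagtgGaaaaaaacct, position in capitals), whose refolded mean was 50459 CPM, with 38689 CPM after ATP depletion and 34910 CPM in untreated cells. It exceeded every A and C of the stretch, while the median G had 966 ± 57.1 CPM after refolding, and it was read in 1 amplicon with 817 to 7137 counts per library. T854, next to the strong C853, had 18001 CPM after refolding, 19398 CPM after ATP depletion and 18130 CPM in untreated cells. T814 had 11602, 19170 and 16273 CPM in the same order. How much of this signal depends on DMS was not tested, since an RNA control never exposed to DMS was not analysed here.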

How the results depend on the processing

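No Ddx17 reading was called between ATP-depleted and untreated cells under any of the alternatives run, with 8 to 36 readings at an unadjusted p under 0.05 (limma). Counts of readings that differed after refolding moved with the number of readings tested: against untreated cells they were 67 with the filter on weak nucleotides, 84 for A alone, 82 for C alone and 279 with T and G, and against ATP-depleted cells 74, 85, 85 and 286. Leaving out 1 sample gave 124 to 165 against untreated and 109 to 167 against ATP-depleted cells, the lowest without ATP-depleted sample 2.

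Differences of amplicon Gini coefficients changed sign or call as follows. With the filter on weak nucleotides, which by construction removes them, the refolded minus untreated difference became 0.125 (503 to 753), 0.0132 (639 to 889) and 0.0925 (731 to 981), and the refolded minus ATP-depleted difference 0.122, -9.28e-05 and 0.0863. Without 25 nucleotides at the ends, 172 to 422 gave -0.000628 against untreated and 0.0224 against ATP-depleted cells. For C alone it gave 0.0927 against untreated cells and 0.00381 for ATP-depleted minus untreated, and with limma's trend and robust options its value against untreated cells stayed at 0.0229 and only the call changed. For A alone, 503 to 753 gave -0.0481 against ATP-depleted cells. Leaving out 1 sample gave 0.0163 to 0.0288 for 172 to 422 and -0.0451 to -0.0102 for 503 to 753 against untreated, and -0.0530 to -0.0181 for 503 to 753 against ATP-depleted cells. The cause was not tested beyond what the filters remove.

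The merged Gini difference was -0.000455 for ATP-depleted minus untreated with T and G, and for C alone -0.0474 and -0.0629 for refolded minus untreated and minus ATP-depleted. Areas under the curve in the order ATP-depleted, untreated and refolded were 0.543, 0.524 and 0.631 with local folding, 0.729, 0.719 and 0.732 for A alone and 0.689, 0.674 and 0.647 for C alone. The log2 ratio of the helix medians, refolded over in-cell, was 2.71, with 2.02 for A alone and 3.19 for C alone; these alternatives were chosen after seeing the data. With the replicate number as a block, counts of called readings were 0, 151 and 161 and no call of an amplicon changed. Named positions kept their direction under every alternative run. Depth limits the weakest positions: C591 had 41 to 690 counts per library.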
